A study of Mus musculus with 32 samples.

Results

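Chemokines are small secreted proteins that draw leukocytes along a concentration gradient through receptors of the seven-pass family, and are named CC or CXC by the spacing of their first cysteines. Microglia, the resident macrophages of the brain, make several of them when activated. The genes examined here were Ccl2, Ccl3, Ccl4, Ccl5, Ccl6, Ccl9, Ccl12, Cxcl10 and Cxcl16, taken as a named list of CC and CXC chemokines. Each had a row in the table, so they make up 9 of the 18588 genes with a signal. Ccl3 and Ccl4 (MIP-1α and MIP-1β) attract monocytes and T cells. Ccl6 and Ccl9 are rodent CC chemokines that act through CCR1, as Ccl3 also does. Cxcl16 is made as a transmembrane protein that binds CXCR6 and is released by the protease ADAM10. Cxcl10 is a CXCR3 ligand that is induced by interferon. Ccl2 and Ccl12 act through CCR2 on monocytes, and Ccl5 (RANTES) is best known as a product of T cells and macrophages.

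Signals were compared between female rTg4510 mice and female WT littermates at 2, 4, 6 and 8 months of age. rTg4510 mice carry a mutant human tau transgene together with the transactivator that switches it on, whose CaMKIIα promoter is active in forebrain neurons, and WT littermates carried neither (labelled 129/FVB F1). By this design the tau is made by neurons and not by microglia. Signal of the transgene in these libraries was not examined here. Forebrains of 8 to 10 animals were pooled for each library and its cells captured with CD11b beads, so a replicate is a pool and the spread between animals cannot be seen. CD11b is also carried by neutrophils, monocytes and NK cells. Of 32 libraries, 28 were used. Each genotype had 4 of them at 2 and at 6 months, and 3 at the other ages. The remaining 4 had failed the authors' quality control.

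All 8 microglia markers had a signal in each library. The log2 of their summed signal was lower in rTg4510 without overlap from 4 months on. It was 14.67 to 14.77 against 14.85 to 15.07 in WT at 4 months and 14.66 to 14.88 against 14.98 to 15.14 at 6 months. At 8 months it was 14.47 to 14.58 against 14.71 to 14.97. The groups overlapped at 2 months (14.78 to 14.93 against 14.92 to 15.18). Tmem119, a marker of resting microglia, was lower from 4 months on (log2 fold change -0.74, -0.78 and -0.72), and at 6 months 1 of the 8 was called higher and 2 lower. Some markers of other CD11b-bearing cells were called lower in rTg4510 at some ages. Of 9 neutrophil markers 0, 0, 8 and 6 were at 2, 4, 6 and 8 months. The log2 of their summed signal at 6 months was 7.47 to 8.18 in rTg4510 and 9.08 to 10.37 in WT. Of 8 measured T and NK cell markers 1, 2, 4 and 1 were lower at the 4 ages, and of 6 monocyte markers 0, 1, 4 and 0. The monocyte markers Ccr2 (0.21) and Itga4 (0.51) had positive differences at 6 months that were not called. Of 7 border macrophage markers 1 was lower at 6 and 1 at 8 months. The log2 of their summed signal at 4 months was 10.12 to 10.41 in rTg4510 and 10.48 to 11.27 in WT, and the groups overlapped at the other ages. Of all genes 1.58%, 9.47%, 11.3% and 10.5% were called higher and 0.403%, 4.33%, 8.54% and 5.37% lower at the 4 ages. At no age was a neutrophil, monocyte, border macrophage, T and NK cell or B cell marker called higher in rTg4510. Single markers of cells without CD11b were higher, namely the astrocyte gene Gfap at 6 and 8 months (1.52 and 1.8, 1 of 6 astrocyte markers) and the endothelial gene Flt1 at 4, 6 and 8 months (0.98, 1.89 and 1.17, 1 of 6 endothelial markers). Pecam1, another endothelial marker, was lower at these ages (-1.35, -2.12 and -2.04). In these bulk samples fewer cells of a type and less RNA per cell cannot be told apart, and the part of these cells in the chemokine signals was not tested.

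Of the 9 genes, 7 lie on mouse chromosome 11 in 2 neighbouring stretches of CC genes (RefSeq, GRCm38). Ccl2 (chr11:82035577-82037452) and Ccl12 (chr11:82101845-82103399) are in the proximal stretch. Ccl5 (chr11:83525778-83530518), Ccl9 (chr11:83572917-83578636), Ccl6 (chr11:83587886-83593087), Ccl3 (chr11:83647843-83649378) and Ccl4 (chr11:83648624-83664683) follow in the distal stretch. Cxcl16 (chr11:70454389-70459984) is elsewhere on that chromosome and Cxcl10 (chr5:92346638-92348889) is on chromosome 5. The RefSeq spans of Ccl3 and Ccl4 share 755 bases, whereas GENCODE M21 starts Ccl4 at 83662584, clear of Ccl3. Which annotation the authors counted on is not given in the sources used here, so some reads could have counted for both genes. Other annotated genes also overlap members. Zmynd15 shares 552 bases with Cxcl16 and was up-regulated from 4 months on (1.57, 1.52 and 1.59 on the log2 scale). E230016K23Rik spans Ccl6 and Art3 spans Cxcl10, and neither was called at any age. How reads that match several related genes were counted is not stated, which bears on close paralogs such as Ccl2, Ccl7 and Ccl12. Because counting by strand is not stated, reads of Zmynd15 and Cxcl16 may not have been told apart.

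RefSeq promoter sequence was at hand for 5 of the 9 genes. The 250 bases before the annotated start are printed on the gene's strand for 3 of them: Cxcl10, the interferon-induced member, Ccl9, whose genotype difference grew between 2 and 4 months, and Ccl3, which had the largest genotype difference of the 9 at 4 months. Both strands were searched for the NF-κB consensus and for the interferon-stimulated response element core GAAANNGAAA. They were also searched for the AP-1 element in the loose form TGANTCA, with any base in the middle. Matches are in capitals.
Cxcl10: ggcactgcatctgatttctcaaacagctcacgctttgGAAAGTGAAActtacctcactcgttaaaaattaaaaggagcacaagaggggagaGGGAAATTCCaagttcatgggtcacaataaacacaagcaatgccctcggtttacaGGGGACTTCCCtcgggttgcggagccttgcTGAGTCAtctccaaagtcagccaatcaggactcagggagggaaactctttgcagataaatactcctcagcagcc
Ccl9: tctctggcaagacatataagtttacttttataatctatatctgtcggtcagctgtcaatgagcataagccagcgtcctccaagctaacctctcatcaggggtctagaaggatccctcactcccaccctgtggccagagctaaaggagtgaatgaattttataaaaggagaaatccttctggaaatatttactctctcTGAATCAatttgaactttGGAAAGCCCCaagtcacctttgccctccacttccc
Ccl3: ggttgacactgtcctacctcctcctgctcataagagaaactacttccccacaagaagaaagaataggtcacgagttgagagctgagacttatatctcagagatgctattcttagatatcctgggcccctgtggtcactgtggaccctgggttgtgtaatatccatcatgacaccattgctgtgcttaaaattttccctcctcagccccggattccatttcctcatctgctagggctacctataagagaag
Cxcl10 (chr5:92348890-92349139, minus strand) held all 3 motifs. NF-κB matches stood at -159 to -150 and, as 2 overlapping matches, at -104 to -94 from the start, the interferon element at -213 to -204 and the AP-1 element at -74 to -68. Ccl9 (chr11:83578637-83578886, minus strand) held a match to the loose AP-1 form, TGAATCA, at -53 to -47. On the opposite strand it held an NF-κB match at -35 to -26. The windows of Ccl3 (chr11:83649379-83649628, minus strand), Ccl6 and Ccl12 held no match. Among 32851 promoter windows of this length 7.25% held the NF-κB consensus, 2.98% the interferon element and 6.75% the AP-1 element. A match describes letters only and was not tested as a binding site.

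The chemokines Ccl3, Ccl4, Ccl6, Ccl9, Cxcl10 and Cxcl16, were up-regulated in rTg4510 microglia, and Ccl2, Ccl5 and Ccl12 were not called at any age. A gene was called when its FDR, the Benjamini-Hochberg adjusted p of a limma linear model over all 18588 genes, was under 0.05 and its change was over 1.5 fold. At 2 months 4 of the 9 were called higher, where 1.58% of all genes were. At 4 months 6 of 9 were called higher against 9.47% of all genes, at 6 months 6 of 9 against 11.3%, and at 8 months 6 of 9 against 10.5%. No member was called lower, where 0.403%, 4.33%, 8.54% and 5.37% of all genes were. The rTg4510 and WT libraries did not overlap for 5, 6, 6 and 6 of the 9 at the 4 ages, as was so in either direction for 11%, 36.6%, 32.8% and 36.7% of all genes. The median log2 fold change of the 9 was 0.66, 2.00, 1.42 and 1.26 at 2, 4, 6 and 8 months, beside 0.0143, -0.037, -0.035 and -0.014 over all genes. Ccl3, Ccl4, Ccl6 and Cxcl16 are among the genes that the study itself picked out of these libraries, so their direction here is not independent evidence. All 9 members were listed with earlier results of these data known, and the study compared the genotypes in the same libraries. The counts beside all genes are therefore a description.

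**Figure D1:**
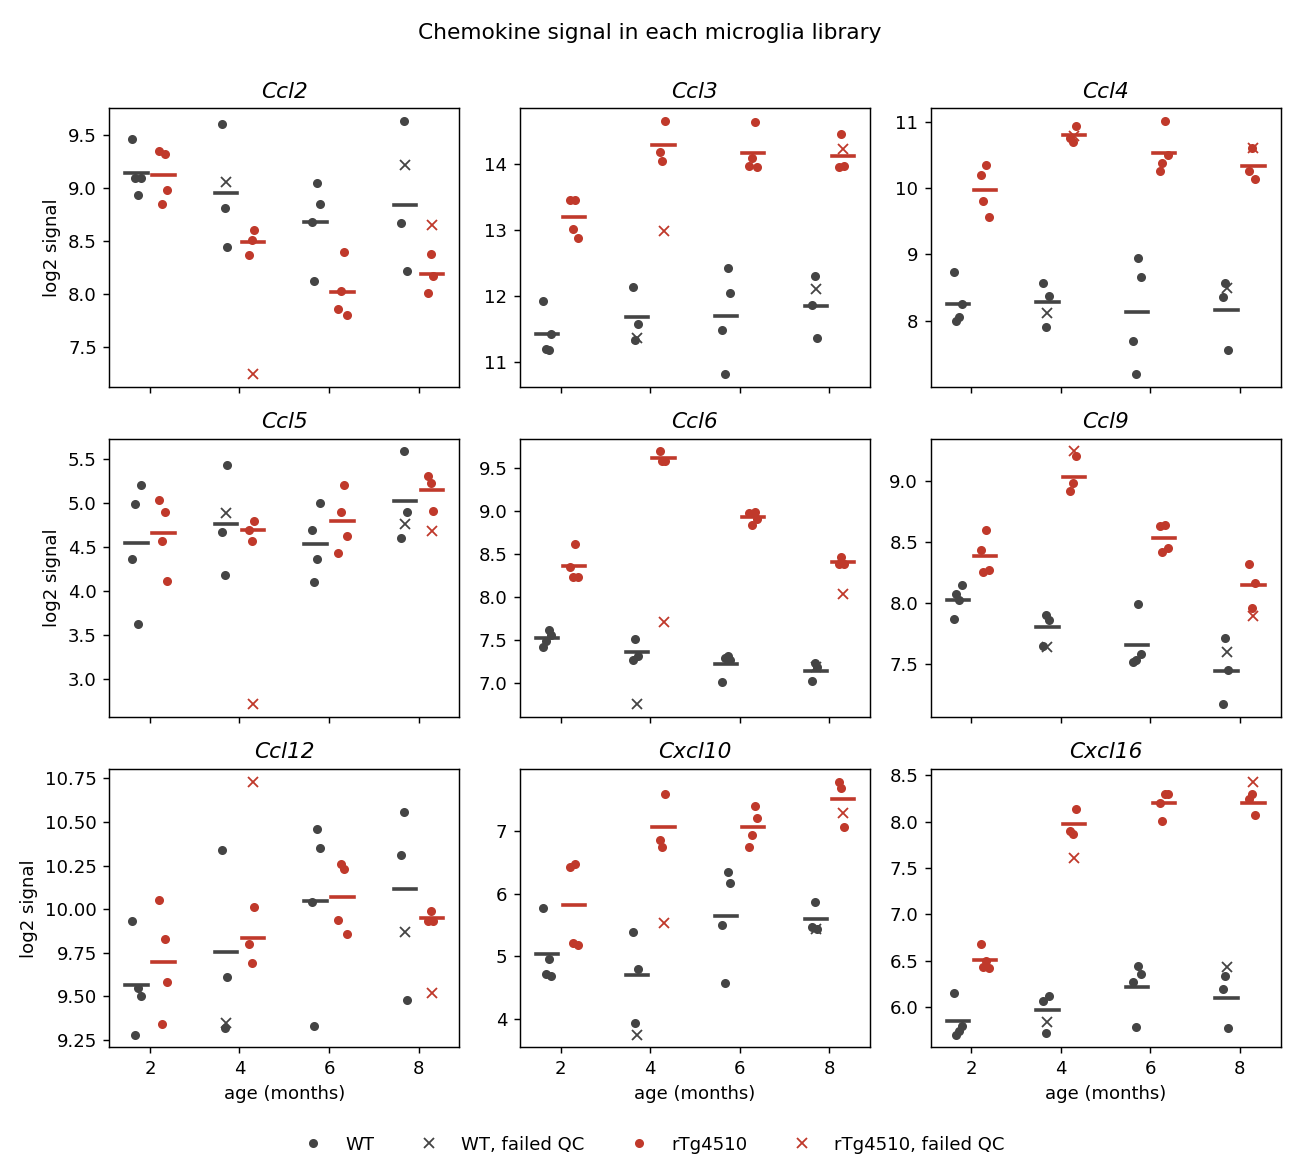
Log2 signal (y axis) of 9 chemokines in each library by age in months (x axis), with WT in grey, rTg4510 in red, short lines for the mean of the libraries used and crosses for the 4 libraries that failed quality control. Red points stand above every grey point for Ccl3, Ccl4, Ccl6, Ccl9 and Cxcl16 at each age and for Cxcl10 from 4 months on, while Ccl2, Ccl5 and Ccl12 overlap throughout.

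Ccl3 was already 3.41 fold higher at 2 months. Its log2 signals in rTg4510 at that age were 13.46, 13.02, 13.45 and 12.88, and in WT 11.92, 11.20, 11.18 and 11.42. The lowest rTg4510 library thus lay above the highest WT library (log2 fold change 1.77, 95% confidence interval 1.15 to 2.39, FDR = 0.000629). At 4 months the rTg4510 libraries read 14.18, 14.04 and 14.65 and the WT libraries 12.14, 11.33 and 11.57. This was the largest difference of Ccl3, 6.11 fold (2.61, 1.90 to 3.33, FDR = 5.64e-06).

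At 6 months Ccl3 read 13.97, 14.09, 14.63 and 13.95 in rTg4510 and 11.49, 10.82, 12.42 and 12.05 in WT. The WT libraries were more widely spread here (SD 0.697, n = 4) than the rTg4510 libraries (SD 0.321, n = 4), and the groups stayed apart (2.46, FDR = 1.04e-06). At 8 months the values were 13.95, 14.45 and 13.97 in rTg4510 and 11.86, 12.30 and 11.37 in WT (2.28, FDR = 2.51e-05). Between 2 and 4 months Ccl3 rose within rTg4510 by 1.09 on the log2 scale (FDR = 0.0246), a call that was lost without replicate 2 or 4 of the rTg4510 2-month group or replicate 4 of the rTg4510 4-month group (FDR 0.0625, 0.0685 and 0.127), with all 32 libraries (FDR = 0.134), in a fit of these 2 groups alone (FDR = 0.0653) and under quantile normalization (0.86, FDR = 0.0661). The genotype difference itself was not called as larger at 4 than at 2 months (0.84, -0.11 to 1.79, FDR = 0.328).

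Ccl4 followed Ccl3 closely. At 2 months it read 10.19, 9.81, 10.35 and 9.56 in rTg4510 and 8.73, 7.99, 8.05 and 8.26 in WT, which is 3.30 fold (log2 fold change 1.72, SE 0.316, FDR = 0.00136). At 4 months the values were 10.75, 10.70 and 10.93 against 8.57, 7.90 and 8.37 (5.71 fold, FDR = 2.01e-05). No WT library reached the level of any rTg4510 library at these or the later ages. At 6 and 8 months the difference was 2.41 and 2.17 on the log2 scale (FDR 3.21e-06 and 9.61e-05). WT Ccl4 at 6 months ran from 7.20 to 8.94, the widest WT range of this gene, and the 2 low WT libraries, replicates 1 and 2, were also the low ones for Ccl3.

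Ccl6 had the smallest error of the 9 genes and a peak at 4 months. Its log2 signals in rTg4510 were 8.35, 8.23, 8.61 and 8.23 at 2 months and 9.69, 9.58 and 9.58 at 4 months. They were 8.97, 8.84, 8.99 and 8.91 at 6 months and 8.38, 8.46 and 8.38 at 8 months. The 8-month level in rTg4510 differed from the 2-month level by 0.05 on the log2 scale (-0.13 to 0.23).

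WT Ccl6 was 7.42, 7.49, 7.61 and 7.56 at 2 months and 7.26, 7.51 and 7.31 at 4 months. At 6 months it was 7.01, 7.29, 7.31 and 7.26, and at 8 months 7.02, 7.23 and 7.18. No step between neighbouring ages was called in WT. The genotype difference was 1.78 fold at 2 months, 4.78 fold at 4, 3.26 fold at 6 and 2.40 fold at 8 (log2 0.83, 2.26, 1.71 and 1.26, SE 0.0808 to 0.0933, FDR 2.29e-06, 3.69e-13, 1.66e-12 and 2.35e-09). With the 4 failed libraries added, the 2-month difference kept its size and lost its call (FDR = 0.144).

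Ccl9, the neighbour of Ccl6, had a like course with smaller differences. In rTg4510 it read 8.43, 8.25, 8.60 and 8.27 at 2 months, and in WT 7.87, 8.07, 8.02 and 8.15. The groups did not overlap, but the difference missed the threshold (0.36, 0.10 to 0.62, FDR = 0.104). At 4 months rTg4510 libraries were at 8.92, 8.98 and 9.20 and WT libraries at 7.65, 7.90 and 7.86, which is 2.35 fold (1.23, SE 0.142, FDR = 1.03e-06).

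Ccl9 in rTg4510 then fell to 8.63, 8.42, 8.64 and 8.45 at 6 months and to 8.32, 7.96 and 8.16 at 8 months. WT was at 7.52, 7.53, 7.99 and 7.58 and at 7.17, 7.71 and 7.45. The genotype difference was 0.88 at 6 months (1.84 fold, FDR = 7.62e-06) and 0.70 at 8 months (1.63 fold, FDR = 0.000686). The 8-month value dropped under 1.5 fold without replicate 1 of the WT 8-month group (0.57, FDR = 0.00758), and missed the FDR threshold when only the 8-month libraries were fitted (FDR = 0.0995).

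Cxcl16 had a called difference at 2 months that was smaller than at the later ages, where it held a plateau. Its log2 signals at 2 months were 6.68, 6.43, 6.5 and 6.42 in rTg4510 and 6.15, 5.70, 5.74 and 5.79 in WT (1.58 fold, log2 0.66, 0.36 to 0.96, FDR = 0.00538). At 4 months they were 7.90, 7.87 and 8.14 in rTg4510 and 6.07, 5.72 and 6.12 in WT (3.99 fold, FDR = 1.21e-08). The 6-month libraries read 8.20, 8.01, 8.30 and 8.30 against 6.27, 5.78, 6.44 and 6.36. At 8 months the values were 8.24, 8.30 and 8.07 against 6.19, 6.33 and 5.77. The groups were far apart at the 3 later ages, by 2.00, 1.99 and 2.11 on the log2 scale (SE 0.142 to 0.164).

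Cxcl10 was the most variable of the 6. At 2 months it read 6.43, 5.22, 6.47 and 5.18 in rTg4510 and 5.77, 4.72, 4.96 and 4.69 in WT. The groups overlapped and the difference was not called (0.79, -0.04 to 1.62, FDR = 0.34). Within same-numbered pairs Cxcl10 was higher in rTg4510 in 4 of 4 at 2 months (0.49 to 1.51). With the replicate block the difference was not called (FDR = 0.176). At 4 months rTg4510 was at 6.85, 6.75 and 7.58 and WT at 5.39, 3.94 and 4.80, a difference of 5.10 fold (log2 2.35, SE 0.462, FDR = 0.000602).

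At 6 months Cxcl10 read 6.74, 6.93, 7.39 and 7.21 in rTg4510 and 5.50, 4.58, 6.34 and 6.17 in WT (2.67 fold, FDR = 0.00872). At 8 months it read 7.78, 7.69 and 7.06 in rTg4510 and 5.46, 5.87 and 5.44 in WT (3.79 fold, FDR = 0.00331). From 4 months on every rTg4510 library was above every WT library. The 4- and 6-month calls did not hold in a fit of that age's 2 groups alone (FDR 0.0637 and 0.0548).

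Ccl2, Ccl12 and Ccl5 were the members without a called genotype difference. Ccl2, the main monocyte attractant of the list, had log2 signals of 8.85 to 9.35 in rTg4510 and 8.93 to 9.46 in WT at 2 months. At 6 months it read 7.86, 8.03, 8.40 and 7.80 in rTg4510 and 8.68, 8.12, 9.05 and 8.85 in WT. At 8 months the values were 8.01, 8.38 and 8.17 against 8.67, 9.63 and 8.22. The rTg4510 means were lower and the groups overlapped, and the differences missed the threshold (6 months -0.65, -1.21 to -0.09, FDR = 0.0679, and 8 months -0.65, -1.30 to 0.00, FDR = 0.139). Within same-numbered pairs Ccl2 was lower in rTg4510 in 4 of 4 pairs at 6 months (-1.04 to -0.09) and in 3 of 3 at 8 months (-1.25 to -0.04), and with the replicate block the differences were not called (FDR 0.0681 and 0.13). The 6-month difference passed in 5 of the 28 fits that left out 1 library and under quantile normalization (-0.77, FDR = 0.0313).

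Ccl12 lay between 9.34 and 10.26 in rTg4510 and between 9.28 and 10.56 in WT over all ages. Its difference was 0.13, 0.08, 0.03 and -0.17 on the log2 scale at the 4 ages, with intervals that ran from -0.79 at the lowest to 0.70 at the highest bound. A change of Ccl12 as large as that of Ccl3 at 4 months lies outside the 4-month interval (-0.54 to 0.70). Ccl5 lay between 4.12 and 5.31 in rTg4510 and between 3.62 and 5.59 in WT. Its differences were 0.11, -0.07, 0.25 and 0.12, and the intervals ran from -0.86 at the lowest to 0.93 at the highest bound. Wherever leaving out a library turned the sign of a difference, the gene was Ccl2, Ccl5 or Ccl12.

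**Figure D2:**
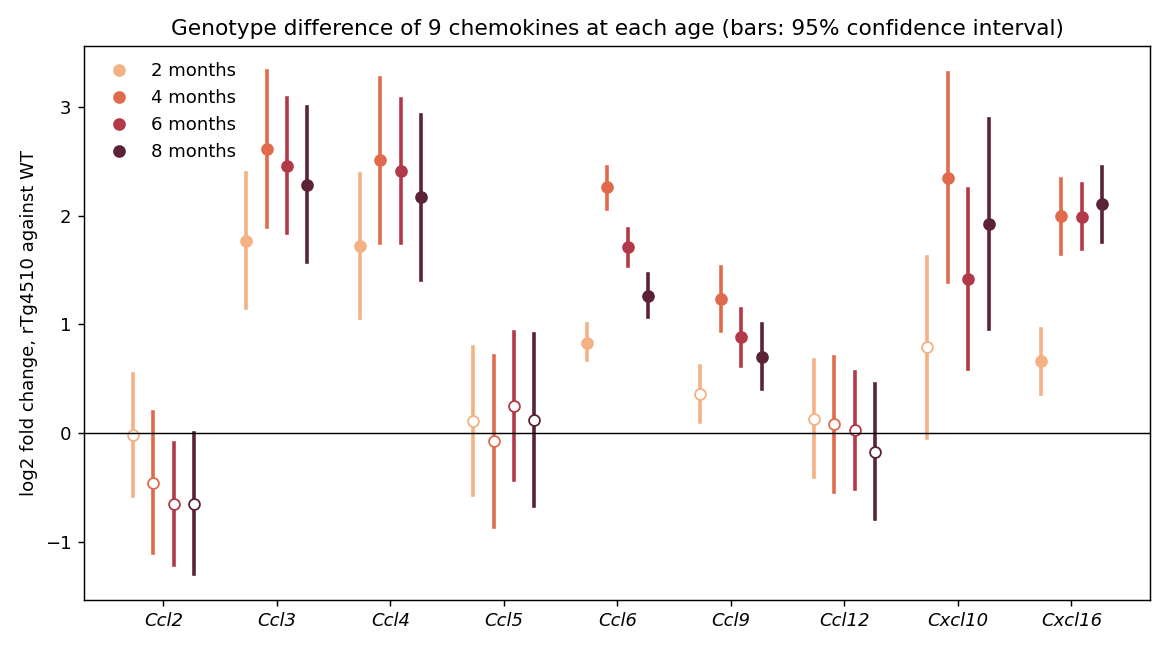
Log2 fold change of rTg4510 against WT (y axis) for each of 9 chemokines (x axis) at 2, 4, 6 and 8 months, light to dark. Bars are 95% confidence intervals and filled points passed the FDR and fold thresholds. Ccl6 and Ccl9 peak at 4 months (2.26 and 1.23), Cxcl16 stays near 2 from 4 months on, and the intervals of Ccl5 and Ccl12 include 0 at each age.

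The genotype difference grew between 2 and 4 months for 3 members, where 3.77% of all genes were called as growing. The difference of differences was 1.42 for Ccl6 (SE 0.123, FDR = 2.84e-07), 1.34 for Cxcl16 (SE 0.218, FDR = 0.000545) and 0.87 for Ccl9 (SE 0.188, FDR = 0.00592) on the log2 scale. These 3 calls held in each of the 28 fits without 1 library. With all 32 libraries the call of Ccl6 was lost (1.1, FDR = 0.106) and 2 of the 3 remained, and the failed library of the rTg4510 4-month group read 7.71 for Ccl6. For Cxcl10 the value was 1.56 with a wide interval (0.29 to 2.83, FDR = 0.141), and for Ccl4 0.79 (-0.22 to 1.80, FDR = 0.401). Within rTg4510 the step from 2 to 4 months was called for Ccl3, Ccl6 (1.26), Ccl9 (0.65) and Cxcl16 (1.46), where 4.03% of all genes were called higher. The Ccl9 call fell under 1.5 fold without replicate 4 of the rTg4510 4-month group (0.57) and under quantile normalization (0.55). The Ccl6 call was lost with all 32 libraries (0.79, FDR = 0.0576).

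After 4 months Ccl6 declined. Within rTg4510 it fell by 0.69 on the log2 scale from 4 to 6 months (FDR = 0.000423), where 0.506% of all genes were called lower, and it was the only member called. The call was lost with all 32 libraries (-0.21, FDR = 0.682) and in a fit of these 2 groups alone (FDR = 0.0677). Its further change from 6 to 8 months was -0.52 (FDR = 0.0515). For that step 0 of 9 members and 0.00538% of all genes were called, and by limma 2 members, Ccl6 and Ccl9, had an unadjusted p under 0.05. No member's genotype difference was called as changing from 4 to 6 months (0.156% of all genes) or from 6 to 8 months (0%). By limma 1 member had an unadjusted p under 0.05 in each of these contrasts, which was Ccl6 (-0.55, FDR = 0.0786, and -0.44, FDR = 1). The Ccl6 difference from 4 to 6 months passed without replicate 1 of the WT 6-month group (-0.62, FDR = 0.037).

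Contrasts of 8 with 4 and with 2 months were added after the values had been seen. From 4 to 8 months the genotype difference of Ccl6 shrank by 0.99 on the log2 scale (interaction -0.99, -1.27 to -0.72, FDR = 0.00363), where 0.102% of all genes were called lower, and that of Ccl9 changed by -0.53 (-0.95 to -0.11, FDR = 0.444). Within rTg4510 Ccl6 and Ccl9 were lower at 8 than at 4 months (-1.21 and -0.89, FDR 6.42e-07 and 0.000901), where 1.1% of all genes were called lower. With all 32 libraries the Ccl6 values were -0.77 for the genotype difference (FDR = 0.537) and -0.83 within rTg4510 (FDR = 0.0642), and in fits of only the groups compared neither the Ccl6 interaction (FDR = 0.072) nor the Ccl9 step (FDR = 0.118) was called. The same step of Cxcl16 was 0.24 (-0.11 to 0.58). From 2 to 8 months Cxcl16 (1.70), Cxcl10 (1.69) and Ccl3 (0.92) were higher within rTg4510, where 5.72% of all genes were, and Ccl2 was lower (-0.94, FDR = 0.0244), where 4.78% were. The Ccl2 call was lost in 4 and the Ccl3 call in 12 of the 28 fits that left out 1 library, both were lost with all 32 libraries (FDR 0.083 and 0.058), and those of Ccl3 and Cxcl10 were lost in a fit of these 2 groups alone (FDR 0.0583 and 0.0813). In WT, 0 of 9 members were called between neighbouring ages, where 0.0484%, 0.00538% and 0% of all genes were. By limma, unadjusted p values under 0.05 were seen for 0, 1 and 0 members in these WT steps. The changes of WT from 4 to 8 and from 2 to 8 months were not tested. At 2, 4, 6 and 8 months the WT means were 8.03, 7.80, 7.66 and 7.45 for Ccl9. They were 7.52, 7.36, 7.22 and 7.14 for Ccl6 and 5.04, 4.71, 5.65 and 5.59 for Cxcl10.

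Libraries of the same group differed from each other in a shared way for 6 of the members. Each library's deviation from its group mean was compared between genes over the 28 libraries, as a description, since the genes share the library and its normalization. Ccl3 and Ccl4 deviated together (Pearson r = 0.952), and r ranged from 0.65 to 0.95 among Ccl2, Ccl3, Ccl4, Ccl12, Cxcl10 and Cxcl16. In the WT 6-month group, for example, replicate 2 was the lowest library for Ccl2, Ccl3, Ccl4, Ccl12, Cxcl10 and Cxcl16, and replicate 3 the highest. Ccl6 did not follow this pattern (r between -0.15 and 0.19 with the 6), and deviated with Ccl9 (r = 0.583). Ccl2 and Ccl12 thus varied with Ccl3 from library to library (r = 0.85 and 0.89) and had no called genotype difference.

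**Figure D3:**
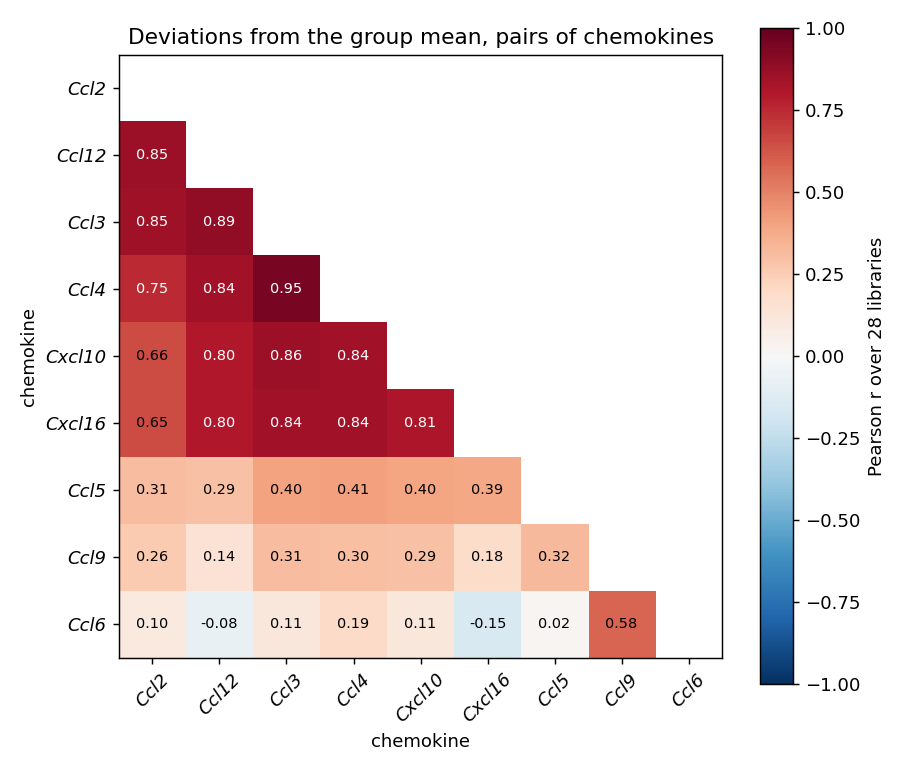
Pearson r between pairs of chemokines (both axes), computed on each library's deviation from its group mean over 28 libraries and coloured from blue (-1) to red (1). Ccl2, Ccl12, Ccl3, Ccl4, Cxcl10 and Cxcl16 form a block of high values, and Ccl6 is near 0 with all of them but 0.58 with Ccl9.

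The genes whose signal over the 28 libraries was most like each member's are given by Pearson r, which here includes the genotype difference. For Ccl3 they were Ccl4 (0.982), Cd83 (0.976), a surface marker of activated antigen-presenting cells, and Sowahc (0.972). Axl (0.99), a receptor tyrosine kinase for the uptake of dying cells, was most like Cxcl16, and Ly9 (0.985) was among its 3 nearest. Ccl6 was most like Chst11 (0.965), Mif (0.964) and Tyrobp (0.964), the adaptor of TREM2, and Ccl9 was most like Ccl6 (0.935). Ccl2 was most like its neighbour Ccl7 (0.958). Gadd45b (0.926) led for Cxcl10, followed by LOC100862431 (0.922) and the NF-κB regulator Nfkbiz (0.918). For Ccl12 the nearest were Il10 (0.781) and Cxcl2 (0.765). No gene was close to Ccl5 (at most 0.645, Rab15). On deviations from the group mean, Ccrl2 was nearest to Ccl3 (0.953), and Ccl7 and the platelet factor gene Pf4 to Ccl2 (0.913 and 0.903). Pf4 is also one of the border macrophage markers used here. Cxcl2 and Klf2 were among the 3 nearest to Cxcl16 (0.931 and 0.926).

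Of the other chemokine ligands 22 had a signal, and 5 of them were higher and 5 lower at 1 or more ages. Cxcl13, the CXCR5 ligand that attracts B cells, lay at 5.09 to 5.51 in rTg4510 and 4.32 to 4.90 in WT at 2 months and was not called (0.69, FDR = 0.0765). At 4 months it lay at 8.23 to 8.37 in rTg4510 and 4.82 to 5.44 in WT, and its differences at 4, 6 and 8 months were 3.27, 2.93 and 4.04 (FDR 6.19e-09, 1.17e-09 and 2.57e-10). Cxcl14 rose as strongly (3.99, 3.75 and 3.83). Its WT libraries at 4 months lay near the lowest values of the table, so that difference is given as at least 13.5-fold higher, against a floor of 3 counts per library inferred from the spacing of low values. Their point estimates were above those of each of the 9 members from 4 months on.

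Ccl22, a CCR4 ligand, was higher at 4, 6 and 8 months (1.31, 1.68 and 1.64), and Ccl8 at 6 and 8 months (1.62 and 1.21). Cxcl11, a CXCR3 ligand like Cxcl10, was higher at 6 months (1.49), where the groups overlapped (3.36 to 4.82 in rTg4510 and 1.81 to 4.07 in WT). Its WT median there, 2.01, was close to the lowest values of the libraries used (1.23 to 1.92). Ccl24, an eotaxin, was lower at 4, 6 and 8 months (-0.71, -0.71 and -0.97). Ccl7 was lower at 6 months (-0.85, FDR = 0.0266), where its neighbour Ccl2 missed the threshold. Ccl17 was lower at 2 months (-1.46), Ccl25 at 6 months (-0.88) and Cxcl12 at 4 months (-1.19). By age, 0, 3, 5 and 4 of the 22 were higher and 1, 2, 3 and 1 lower at 2, 4, 6 and 8 months. Of all genes 1.58%, 9.47%, 11.3% and 10.5% were called higher and 0.403%, 4.33%, 8.54% and 5.37% lower at these ages. The share of all genes called in a direction at 1 or more ages was not computed.

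**Figure D4:**
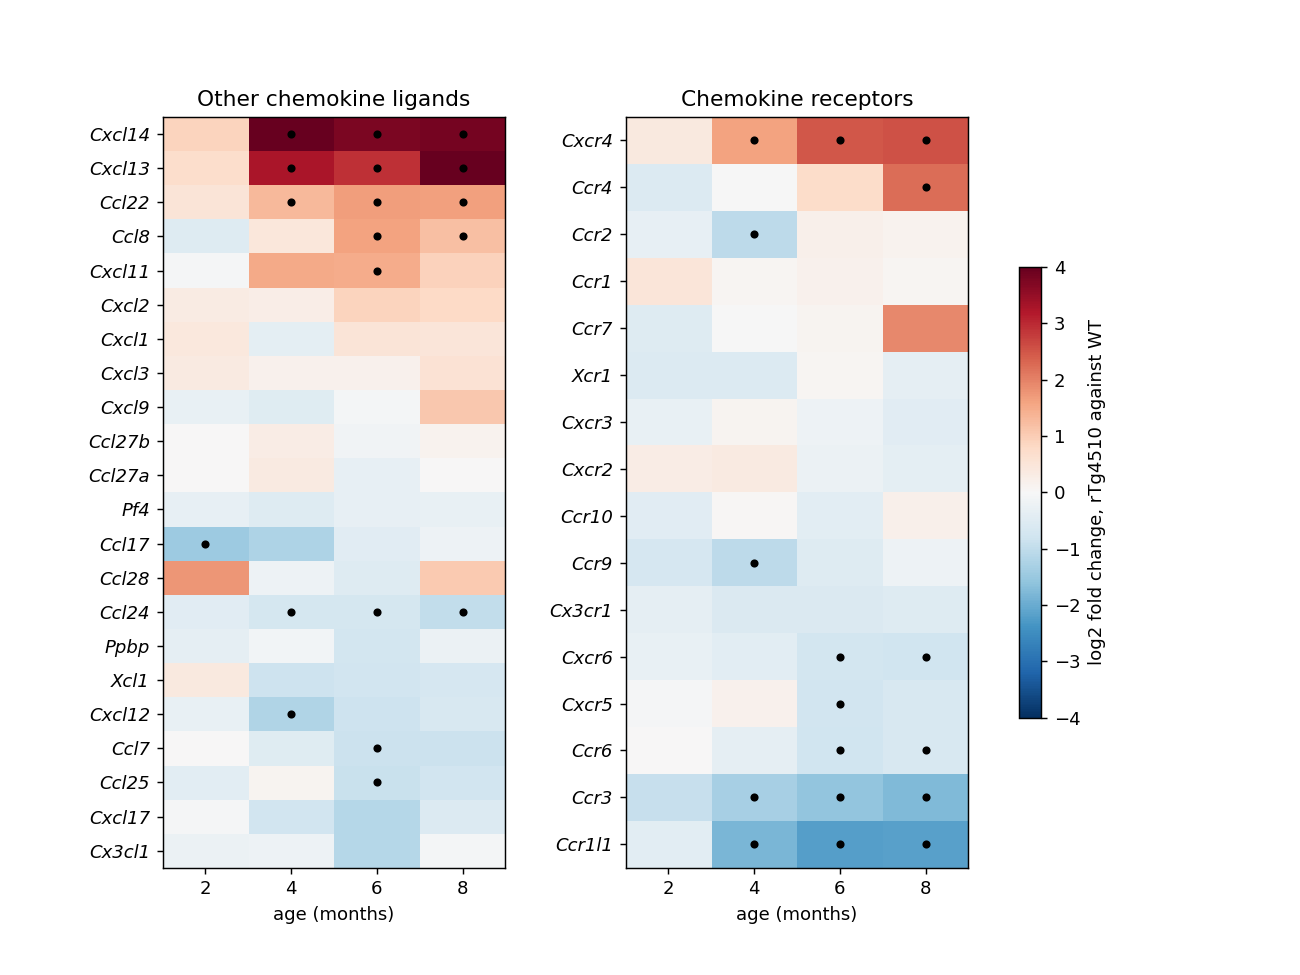
Log2 fold change of rTg4510 against WT by age in months for 22 other chemokine ligands (left) and 16 chemokine receptors (right), from blue (lower in rTg4510) to red (higher), sorted by the 6-month value. Dots mark calls. Cxcl14, Cxcl13 and Cxcr4 are higher from 4 months on, and Ccr3 and Ccr1l1 lower.

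None of the 4 receptors Ccr1, Cxcr6, Cxcr3 and Ccr2, which bind members, was called higher in rTg4510. Ccr1, the receptor of Ccl6 and Ccl9, differed by 0.49, 0.07, 0.16 and 0.07 and was not called. Cxcr6, the receptor of Cxcl16, was lower at 6 and 8 months (-0.74 and -0.79, FDR 0.00249 and 0.00587). Cxcr3, the receptor of Cxcl10, differed by -0.29 to 0.12 up to 6 months and by -0.45 at 8 months, and was not called. Ccr2, the receptor of Ccl2 and Ccl12, was lower at 4 months (-1.05, FDR = 0.00998) and differed by 0.21 and 0.15 at 6 and 8 months.

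Of 16 receptors 2 were higher and 7 lower at 1 or more ages. By age, 0, 1, 1 and 2 were higher and 0, 4, 5 and 4 lower, beside the shares of all genes given above for the other ligands. Cxcr4, the receptor of Cxcl12, was higher at 4, 6 and 8 months (1.6, 2.49 and 2.56), with 10.59 to 11.01 in rTg4510 and 7.57 to 9.01 in WT at 8 months. Ccr4 was called higher at 8 months, where WT lay near the floor (at least 1.87-fold higher). Ccr1l1 (-1.83, -2.19 and -2.17) and Ccr3 (-1.32, -1.57 and -1.77), a receptor known from eosinophils, were lower at 4, 6 and 8 months. Ccr6 was lower at 6 and 8 months (-0.81 and -0.65), Cxcr5 at 6 (-0.77) and Ccr9 at 4 (-1.04). The fractalkine receptor Cx3cr1, a microglia marker, differed by -0.35, -0.57, -0.57 and -0.51 (FDR 0.0367, 0.000604, 9.19e-05 and 0.00167), under 1.5 fold.

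Among 11 measured decoy receptors and chemokine-processing enzymes, Ccrl2, which binds chemerin, was higher at 4, 6 and 8 months (1.58, 2.02 and 2.01). The matrix metalloproteases Mmp12 (1.70, 1.73 and 1.23) and Mmp14 (0.63, 0.89 and 1.01) were higher and Mmp9 (-0.94, -1.22 and -0.78) lower at these ages. Ackr4, a scavenging receptor, was also lower at 6 months (-0.63). Adam10, the sheddase of Cxcl16, differed by -0.01, -0.02, -0.18 and -0.23, under 1.5 fold. The list as a whole had 3 higher and 1 lower at 4 months, 3 and 2 at 6 months and 3 and 1 at 8 months. Of all genes 9.47%, 11.3% and 10.5% were called higher and 4.33%, 8.54% and 5.37% lower at these ages.

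Genes of the NF-κB pathway and genes that respond to interferon were measured in the same libraries. Of all genes 1.58%, 9.47%, 11.3% and 10.5% were called higher at 2, 4, 6 and 8 months. Of 14 NF-κB subunits and inhibitors 0, 6, 4 and 6 were higher at these ages and none was called lower. At 4 months the largest were Nfkbia (1.41, FDR = 0.00234), Tnfaip3 (1.09), Nfkbiz (1.03) and Bcl3 (0.72), which are inhibitors or modulators that NF-κB itself induces. The subunit gene Rela differed by 0.05, 0.1, 0.08 and 0.19 at the 4 ages and was not called. Of 20 interferon response genes 0, 4, 8 and 9 were higher and none was called lower, with Ifi44 (1.13) and Ifit2 (0.81) the largest called at 4 months. Their median log2 fold change was 0.18, 0.37, 0.53 and 0.75 at the 4 ages, while Cxcl10 was at 0.79, 2.35, 1.42 and 1.92.

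Of 10 inflammatory cytokine genes 3, 7, 6 and 6 were higher and none was called lower. Of all genes 1.58%, 9.47%, 11.3% and 10.5% were called higher and 0.403%, 4.33%, 8.54% and 5.37% lower at the 4 ages. Csf1, the growth factor of microglia, was higher at each age (1.88, 3.87, 3.70 and 3.53), as was Il1b (1.0, 1.78, 2.41 and 2.26). Tnf (1.91, 2.07 and 2.29) and the interleukin-1 antagonist Il1rn (2.59, 3.01 and 2.35) were higher from 4 months on. The list of immediate early genes, which also respond to tissue dissociation, was mixed and included the heat shock genes Hspa1a and Hspa1b. Of its 22 genes 3, 3, 5 and 3 were higher and 0, 3, 3 and 1 lower, beside the same shares of all genes. Egr2 (1.14, 1.48, 1.02 and 0.90), Egr3 (1.66, 1.1, 1.41 and 0.86) and Nr4a1 (1.43, 1.40, 2.25 and 2.24) were higher at each age. The lower calls were Hspa1b and Hspa1a at 4 months (-2.23 and -1.99) and 6 months (-1.99 and -1.68), and Ier5 at 4, 6 and 8 months (-0.75, -0.66 and -0.91). The part of these genes in the chemokine differences was not tested.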

How the data were processed

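The deposited values are log2 gene signals. The authors summed exon reads, dropped exons with few counts in most samples, fitted a robust linear model over each gene's exons, took log2 and median normalized the result. Each library's median was 5.63. The submitters' processing notes name GRCm 38, and the aligner and annotation are not given in the sources used here. The Methods state a similar read depth for each sample, but the table holds no read totals, so no counting interval was computed.

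Libraries were grouped by genotype and age from their labels, and 28 of 32 were used, as in the Methods. A linear model with 8 group means (limma 3.58.1, R 4.3.3, unmoderated variances, 20 residual degrees of freedom) was fitted to all 18588 genes. FDR values were Benjamini-Hochberg adjusted within each contrast, and calls needed an FDR under 0.05 and over 1.5 fold. Nothing was filtered out. Confidence intervals are 95%. The members and gene lists were chosen with earlier results of these data known. Named beside the 9 members are every other ligand and receptor called at an age, up to 4 genes of each other list with the largest called change at 4 months and no overlap, and the 3 genes most like each member by Pearson r. Receptors of the members, Adam10, Ackr4 and genes singled out beyond this rule were chosen after their values were seen. A receptor and a gene most like a member are not reported here.

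A floor was inferred from the low values. Of 25393 values above a library's lowest and up to 3 counts, 47.5% lay within 0.003 of the log2 of a whole count plus 1.5, where even spacing would give 1.14%. Gene names, positions and promoters came from RefSeq GRCm38.p6, in which 95.9% of the Entrez numbers were found. Motif search used Python 3.11.15, and figures used numpy 2.4.6 and matplotlib 3.10.9. Tested on simulated data for the 18588 genes, the model called 58% to 72% of changes of 1 and 81% to 89% of changes of 2 on the log2 scale in the 4 genotype contrasts, 0 of them with the wrong sign. Between 2 and 8 unchanged genes were called per contrast. The simulated noise was independent between genes, unlike the shared deviations seen here, and 100 genes were changed at each size. The rates in these data may therefore differ.

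Both genotypes carry the same replicate numbers. Deviations from the group mean correlated between same-numbered libraries of an age with r of 0.131 to 0.153 at 6 months and 0.15 to 0.291 at 8 months, and were not all over 0.1 at 2 months (0.065 to 0.167) or 4 months (-0.1 to 0.124). The numbers were taken to pair the libraries at 6 and 8 months, on the values alone. At 2 months, as at 6 and 8 months, each WT library correlated most with the rTg4510 library of its number. A pairing at 2 months can therefore not be excluded. Alternatives were all 32 libraries, only the groups of a contrast, a moderated statistic, quantile normalization, a filter at the 25th percentile of mean signal, a replicate block and each library left out in turn.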

Additional observations from a re-analysis of the deposited data

Results flagged for a closer look

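Among 36 groups of 4 libraries, 2 held a library far from the others by Dixon's ratio, which chance does in about 1 of 20 such groups. Ccl6 in WT at 6 months read 7.01 in replicate 1, below the other values of 7.26 to 7.31. Ccl9 in WT at 6 months read 7.99 in replicate 3, above the other values of 7.52 to 7.58. The 6-month calls of Ccl6 and Ccl9 held without these libraries.

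The genotype difference at 4 months was larger than at 2 months for Ccl6 (1.42 on the log2 scale), Ccl9 (0.87) and Cxcl16 (1.34), each by the interaction contrast of the limma fit. With all 32 libraries the Ccl6 value was 1.1 and was not called (FDR = 0.106).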

How the results depend on the processing

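Across the 36 genotype differences of the 9 chemokines, the direction and call held in all 36 with a moderated statistic, a filter on low values or a replicate block, in 35 with all 32 libraries, and in 33 each with only the groups of the contrast or quantile normalization. Under the replicate block the members called stayed 4, 6, 6 and 6 at 2, 4, 6 and 8 months, and over all genes the block moved the 4-to-6-month interaction count from 29 to 11. The count of members changed from 4 to 6 months within rTg4510, which is Ccl6, went from 1 to 0 with all 32 libraries and to 0 with only the groups of the contrast. From 2 to 4 months within rTg4510 it went from 4 to 2 under quantile normalization and ranged from 2 to 5 when each library was left out. The 2-to-4-month interaction count was 2 with all 32 libraries, without Ccl6, against 3. The 4-to-6-month interaction count ranged from 0 to 1. Ccl12 changed sign under quantile normalization at 4 months (-0.16) and 6 months (-0.27). When each library of the age was left out, differences spanned 0 for Ccl2 at 2 months (-0.09 to 0.09), Ccl5 at 2, 4 and 8 months (-0.20 to 0.33, -0.36 to 0.27 and -0.09 to 0.40), and Ccl12 at 4, 6 and 8 months (-0.14 to 0.37, -0.21 to 0.17 and -0.49 to 0.05). The Ccl2 difference at 8 months passed without replicate 3 of the WT 8-month group (-0.96, FDR = 0.0349). The cause of these changes was not tested, beyond the fewer libraries of some fits.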

Other observations

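The 4 libraries that failed the authors' quality control were not used above. In replicate 3 of rTg4510 at 4 months Ccl6 read 7.71, Ccl2 7.25 and Ccl5 2.71, each below the 3 libraries that were kept, while Ccl9 read 9.24 and Ccl12 10.73, each above them. In replicate 3 of WT at 4 months Ccl6 read 6.75. In replicate 4 at 8 months Ccl6 read 8.03 in rTg4510 and 7.18 in WT.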
